A study of Homo sapiens with 12 samples.

Results

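Shearing alone in total RNA was examined by setting 2 libraries of Total RNA-Frag-Seq against 2 libraries of Total RNA-Seq, 4 of the 12 libraries of the study. The members were chosen by their labels: neither group was purified, and the groups differ in whether the RNA was sheared before library preparation. All libraries came from K562, an established human erythroleukaemia line kept in suspension culture (passage 3 to 5), and the design text calls the RNA libraries biological duplicates. Every culture, the unsheared one included, was exposed for 5 min to 500 µM 4-thiouridine (4sU), a uridine analogue that cells build into new RNA. RNA of Total RNA-Frag-Seq was then sheared in a sonicator with 1 cycle of 30 s on and 30 s off, and RNA of Total RNA-Seq was left whole. The purified counterparts, TT-Seq (4sU-labelled RNA sheared and then pulled out) and 4sU-Seq (labelled RNA pulled out unsheared), have 2 libraries each. They entered the same fit and gave the second shearing contrast used below. The features were the authors' 21874 transcriptional units, stretches of the genome that they segmented from TT-Seq as transcribed on 1 strand, and 19457 of them passed the filter on low counts and were tested. Counts of a unit cover its exons and introns together.

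Total RNA holds spliced mRNA, unspliced precursors, stable nuclear RNA, mitochondrial transcripts and short structured RNAs, and each differs in length and folding. Sequencing libraries are built from short pieces, and shearing breaks long molecules into such pieces before the library is made. Fold changes here compare shares of the libraries, since no outside standard was counted, so a unit can be higher only as another is lower.

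Summed over all bins, the libraries held 43136737 and 33336294 counts after shearing and 30382514 and 25909021 without it. Units took 87.54% and 86.96% of those counts in sheared RNA and 86.34% and 86.59% in unsheared RNA. The mitochondrial chromosome took 2.938% and 3.26% against 4.015% and 4.073%. Over units of the mRNA class, the strand opposite to the unit took 8.62% and 8.14% against 10.1% and 9.92%.

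The unsheared libraries stood apart in 1 respect that their labels do not give: markers of the T lineage were far higher in both of them. The list holds 33 genes and was drawn up after some of these values had been seen. Of these genes, 25 lie wholly outside the units, and all 25 were lower in both sheared libraries, 22 of them by the test described below. Their summed level was 6.17 and 5.67 CPM (counts scaled to a library of 1e6 bin counts) in Total RNA-Frag-Seq against 104 and 88.5 CPM in Total RNA-Seq. It was 4.18 and 4.54 CPM in TT-Seq and 8.18 and 17.6 CPM in 4sU-Seq. BCL11B, a transcription factor needed for commitment to the T lineage, had 0.348 and 0.21 CPM in sheared RNA against 22.8 and 14.1 CPM in unsheared RNA. CD3E, a subunit of the T cell receptor complex, had 0.533 and 0.63 against 5.17 and 4.82 CPM. LCK, the kinase that starts signalling from that receptor, had 0.417 and 0.33 against 6.65 and 7.91 CPM. THEMIS, an adaptor of thymocyte signalling, had 0.348 and 0.24 against 11.7 and 10.2 CPM.

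Over the whole list of 33, with 32 tested, 27 genes were called lower in sheared RNA and 0 higher. Their list summed to 182 and 182 CPM against 374 and 308 CPM. LEF1 alone gave 142 and 144 against 212 and 163 CPM of that sum, and none of the 33 was at 0 in all 4 libraries. Smaller shares of the other lists were called. Over all RefSeq gene spans, 12.9% of those outside units were called lower, and 1302 of 13473 of those mostly in units. Of 14 B lineage markers (10 tested) 4 were called lower, and of 12 myeloid markers (7 tested) 1. Of 9 epithelial markers (7 tested) 2 were called lower, of 8 fibroblast markers (5 tested) 0 and of 13 erythroid markers (12 tested) 3. None of these lists had a gene called higher. The B lineage list also leaned lower: 10 of its 13 markers outside units were lower in both sheared libraries. Those 13 summed to 3.04 and 3.72 against 6.88 and 5.94 CPM. Summed erythroid markers stood at 772 and 689 against 851 and 834 CPM. The epithelial keratins KRT5 and KRT14 and the myeloid S100A9 were at 0 in all 4 libraries. Both unsheared libraries carry the T lineage signal, so no comparison is possible without it, and its part in the results on units was not tested. Of the 33 markers 8 overlap a unit. CD3D, LEF1 and TCF7 have a unit named for them, and LAT, UBASH3A, CCR7, CD5 and RAG1 lie wholly or in part in other units. These are 10 units, of which 4 were called lower and 0 higher. Without them the counts of units called under all 3 scalings would be 1619 higher and 1060 lower.

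**Figure D1:**
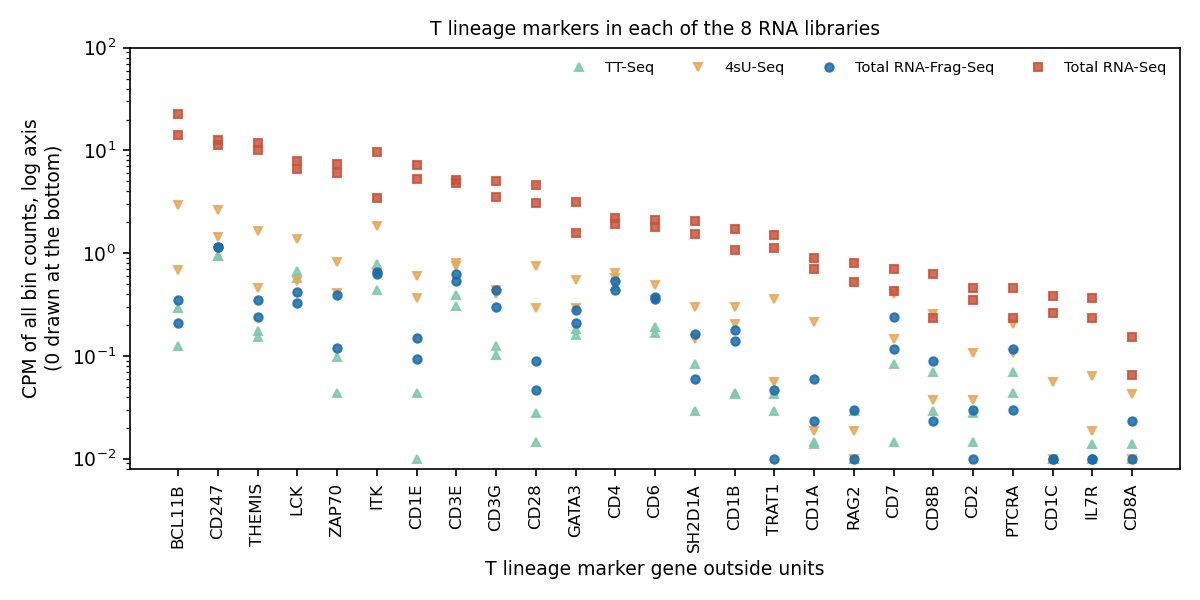
CPM of all bin counts (log axis, 0 drawn at the bottom) for the 25 T lineage markers outside units, in each of the 8 RNA libraries. Squares of Total RNA-Seq lie above circles of Total RNA-Frag-Seq for every gene, with BCL11B at 22.8 and 14.1 against 0.348 and 0.21 CPM.

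The same pattern reached beyond named markers. RefSeq gene spans with under 0.1 of their bins in units numbered 6866 after filtering, and 12.9% of them were called lower in sheared RNA against 3.67% called higher. Of these spans 317 were at least 8-fold lower and 1 at least 8-fold higher. Those 317 together gave 61.0 and 53.9 CPM in sheared RNA against 1270 and 1080 CPM in unsheared RNA. They were picked by fold change in these same libraries, so a wide gap in the sum was fixed by the choice. In TT-Seq they gave 48.7 and 51.3 CPM. Units were segmented from TT-Seq, so RNA scarce there tends to lie outside units by construction, which also bears on the next comparison. Among 13473 spans lying mostly in units, 2 were at least 8-fold lower and 0 at least 8-fold higher. Without Total RNA-Frag-Seq replicate 2 the calls over spans outside units were 109 higher and 578 lower, without Total RNA-Seq replicate 1 they were 105 and 576, and without Total RNA-Seq replicate 2 they were 105 and 611, in place of 252 and 886.

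In units, the quasi-likelihood test of edgeR, with p-values adjusted by Benjamini and Hochberg's method and a threshold of 0.05, called 3211 units higher in sheared total RNA (16.5% of those tested) and 1064 lower (5.47%). In all 4275 the 2 groups did not overlap. Of these, 15 were higher and 122 lower by at least 2-fold. Without Total RNA-Frag-Seq replicate 2, 1063 were higher, and without Total RNA-Seq replicate 1, 2064 were higher and 483 lower. The split depended on how libraries were scaled. With trimmed-mean (TMM) factors the median log2 fold change of all units was -0.03, with library size alone it was -0.18 and with DESeq2's factors -0.12. With library size alone 1619 units were higher and 3238 lower, and with DESeq2's factors 2035 and 2497. Counts of groups below therefore use units called in the same direction under all 3 scalings: 1619 higher (8.32% of the 19457 tested) and 1064 lower (5.47%). Leaving out Total RNA-Frag-Seq replicate 2 left 990 higher and 922 lower, leaving out Total RNA-Seq replicate 1 left 936 and 481, and leaving out Total RNA-Seq replicate 2 left 899 and 296.

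Fold changes in total RNA were ordered by the span of the unit. Units over 150 kb had a median log2 fold change of 0.38, and 656 of 880 rose while 1 fell. Units of 50 to 150 kb had a median of 0.20, with 759 of 3380 higher and 34 lower. The median was -0.01 in units of 15 to 50 kb (185 higher and 384 lower of 4908) and -0.19 in units of 5 to 15 kb (16 higher and 458 lower of 3804). Units of 1 to 5 kb stood at -0.30 (3 higher and 164 lower of 5309) and units up to 1 kb at -0.29 (0 higher and 23 lower of 1176). These values are to be read against the shares over all units, 8.32% higher and 5.47% lower. The median of units over 150 kb exceeded that of units up to 15 kb by 0.63, and by 0.58 to 0.68 in every alternative run, scalings and left-out libraries included. Under any of the 3 scalings the medians of the 2 longest classes were above 0 and those of the other 4 below 0. Without Total RNA-Frag-Seq replicate 2 every class stood lower, at 0.23 over 150 kb, 0.073 at 50 to 150 kb, -0.103 at 15 to 50 kb, -0.475 at 1 to 5 kb and -0.562 up to 1 kb. Units up to 1 kb stood at -0.176 without Total RNA-Seq replicate 2, and those of 15 to 50 kb at 0.002, on the other side of 0. The latter class stood at -0.039 without Total RNA-Frag-Seq replicate 1 and at -0.019 without Total RNA-Seq replicate 1.

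The calls behind these medians were fewer when a library was left out. Without Total RNA-Seq replicate 2, 458 units over 150 kb rose and 205 units up to 15 kb fell, against 656 and 645 with all libraries. Without Total RNA-Seq replicate 1 these counts were 466 and 288. Across the 19457 units the log2 fold change followed span with a Spearman rho of 0.485, a description only, since units share their libraries and short units have fewer counts. The same order held at matched density. With units in 4 bands of CPM per kb, in the densest band the median went from -0.31 up to 1 kb to 0.36 over 150 kb, and in the second band from -0.30 to 0.40.

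Shares of the libraries show the same shift. Units over 150 kb took 27.2% and 28.5% of unit counts in sheared RNA against 23.5% and 23.5% in unsheared RNA. Units of 15 to 50 kb took 26.0% and 25% against 29.2% and 29.3%, and units of 5 to 15 kb 6.01% and 5.38% against 7.38% and 7.41%. Units of 1 to 5 kb took 0.563% and 0.530% against 0.755% and 0.752%. In each of these classes both sheared libraries lay on the same side of both unsheared ones, and the sheared pair spread more than the unsheared pair. An exact permutation test of 2 against 2 cannot go below p = 0.333, so single shares carry no test.

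Over all units together, shearing of purified RNA did not follow this order. From TT-Seq and 4sU-Seq, the median log2 difference on shearing was 0.31 in units up to 1 kb and 0.19 in units of 1 to 5 kb, where total RNA gave -0.29 and -0.30. It was -0.19 at 5 to 15 kb, -0.17 at 15 to 50 kb, 0.04 at 50 to 150 kb and 0.09 over 150 kb. Within the mRNA class purified RNA did follow the order, with medians of -0.86 at 1 to 5 kb, -0.67 at 5 to 15 kb and -0.15 at 15 to 50 kb. They were 0.10 at 50 to 150 kb and 0.14 over 150 kb. Non-coding classes went the other way. From 1 to 5 kb to over 150 kb the purified median went from 0.197 to -0.341 in asRNA units and from -0.055 to -0.377 in lincRNA units. Across units the effects in purified and total RNA had a Spearman rho of 0.083, and the effect in purified RNA followed span with a rho of -0.165. The difference between the 2 effects was itself tested, with no library shared between them. It was above 0 (purified RNA more increased by shearing) in 1683 units (8.65%) and below 0 in 5018 (25.8%). With library size alone these counts were 3518 and 3265. Without Total RNA-Seq replicate 1, 1102 were above 0.

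**Figure D2:**
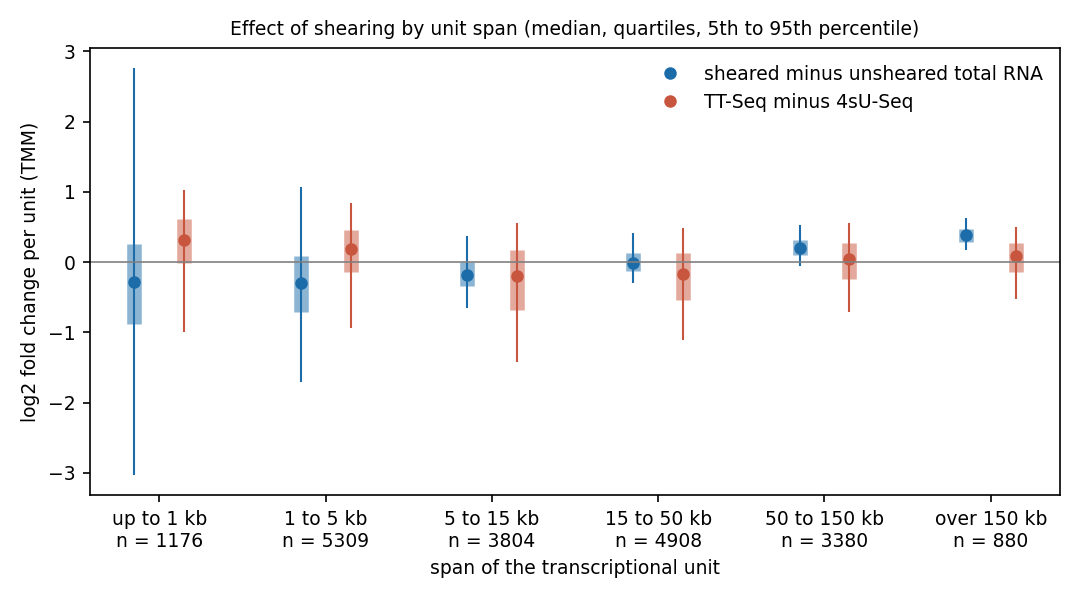
Median (point), quartiles (box) and 5th to 95th percentile (line) of the log2 fold change on shearing, by span of the unit, in total RNA and in purified RNA. In total RNA the median goes from -0.29 up to 1 kb to 0.38 over 150 kb, while in purified RNA it goes from 0.31 to 0.09.

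Transcript classes, as the authors named them, had medians nearer to each other than span classes. Units of the mRNA class had a median of 0.07 under TMM but -0.08 by library size, with 1119 of 7808 higher and 471 lower. Without Total RNA-Frag-Seq replicate 2 the median of mRNA units was -0.034 and that of lincRNA units -0.079. The mRNA units took 74.9% and 75.1% of unit counts in sheared RNA against 73.8% and 73.8%. Long intergenic non-coding units (lincRNA) had a median of 0.04, or -0.11 by library size, with 61 of 298 higher and 9 lower, and 3.3% and 3.52% of unit counts against 3.23% and 3.21%. Antisense units (asRNA) stood at -0.20 (92 higher and 155 lower of 3219), upstream antisense units (uaRNA) at -0.19 (12 and 23 of 591) and convergent units (conRNA) at -0.18 (32 and 26 of 664). Enhancer RNA units (eRNA) stood at -0.16 (29 and 26 of 1955) and short intergenic units (sincRNA) at -0.05 (157 and 66 of 2171). Units the authors left unclassified stood at -0.16, with 78 of 2495 higher and 280 lower, and took 9.51% and 9.03% against 10.6% and 10.6%. Of 76 transcribed unprocessed pseudogene units 19 were higher and 0 lower, with a median of 0.13 under TMM and -0.02 by library size. The counts of each class are to be read against 8.32% higher and 5.47% lower over all units. Left-out libraries moved these medians. Each was lowest without Total RNA-Frag-Seq replicate 2, at -0.278 in eRNA, -0.164 in sincRNA, -0.289 in conRNA, -0.331 in asRNA, -0.333 in uaRNA, -0.232 in unclassified and 0.027 in these pseudogene units. With Total RNA-Seq replicate 1 left out they were -0.022 in eRNA, -0.007 in sincRNA, -0.094 in conRNA, -0.153 in asRNA, -0.143 in uaRNA and -0.134 in unclassified units. The median of sincRNA units was -0.013 without Total RNA-Seq replicate 2.

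Within a class the order by span returned. In mRNA units the median went from -0.31 at 1 to 5 kb (0 higher and 21 lower of 149) to 0.38 over 150 kb (547 and 1 of 743). In lincRNA units it went from -0.41 (0 and 4 of 70) to 0.45, where 29 of 31 rose and 0 fell. In asRNA units it went from -0.32 at 1 to 5 kb to 0.45 over 150 kb (20 of 23 higher). In sincRNA units it went from -0.30 to 0.43 (24 of 29 higher) and in eRNA units from -0.28 at 1 to 5 kb to 0.35 at 50 to 150 kb (13 of 27 higher). By gene type, units named for a coding gene had a median of 0.04 under TMM and -0.11 by library size (872 higher and 578 lower of 6868), and of -0.053 without Total RNA-Frag-Seq replicate 2. Units named for a long non-coding gene stood at -0.10 (84 and 48 of 1114), at -0.179 without Total RNA-Frag-Seq replicate 2 and at -0.066 without Total RNA-Seq replicate 1. Coding units of 5 to 15 kb fell in 256 of 999 cases and rose in 0, and those over 150 kb rose in 454 of 630 and fell in 0. Units outside GENCODE had a median of -0.25 (92 higher and 135 lower of 6175).

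To see where along a gene the difference lay, 3552 coding genes of at least 10 kb in units holding a single gene were divided into the first kb, the body, the last kb and the part of the unit downstream. Each of these was counted as a feature of its own beside all other units. In that fit 5.62% of 29606 features were higher and 6.94% lower under all 3 scalings. The first kb fell in 533 of 3504 genes and rose in 0. The body rose in 533 and fell in 99 of 3552. The last kb rose in 1 and fell in 167 of 3455, and the downstream stretch rose in 50 and fell in 61 of 3190.

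First-kb medians were close to each other across gene lengths, and body medians were not. The median for the first kb was -0.36 in genes of 10 to 15 kb, -0.32 at 15 to 50 kb, -0.30 at 50 to 150 kb and -0.32 over 150 kb. For the body it was -0.18, -0.01, 0.18 and 0.34 in the same order. Over 150 kb the body rose in 192 of 243 genes and fell in 0, while the first kb fell in 40 of 237 and rose in 0. For the last kb the median went from -0.25 in the shortest genes to -0.06 in the longest. The first kb lay below the body of its own gene in 87.0% of genes, and in 96.2% of those over 150 kb. In 86 genes the first kb fell and the body rose. The reverse could not occur, since the first kb rose in 0 genes. Taken singly, the first kb fell in 533 of 3504 genes and the body rose in 533 of 3552. Whether the 86 exceed what unrelated calls would give was not tested, so no link between the 2 calls is read from them.

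Summed over all these genes, first kilobases held 9400 and 10100 CPM in sheared RNA against 13100 and 13500 CPM in unsheared RNA, with no overlap. Bodies held 271000 and 276000 against 257000 and 258000 CPM. Last kilobases held 33500 and 26000 against 36200 and 35100 CPM, so there the sheared replicates differed from each other by more than replicate 1 did from the unsheared pair. Without Total RNA-Frag-Seq replicate 1 the last kb fell in 581 genes, without Total RNA-Frag-Seq replicate 2 in 32, without Total RNA-Seq replicate 1 in 23 and without Total RNA-Seq replicate 2 in 15, in place of 167. First-kb calls were 350 without Total RNA-Frag-Seq replicate 1, 195 without Total RNA-Seq replicate 1 and 151 without Total RNA-Seq replicate 2. Calls of a higher body were 294 without Total RNA-Frag-Seq replicate 2, 262 without Total RNA-Seq replicate 1 and 245 without Total RNA-Seq replicate 2. Calls of a lower body were 44, 14 and 10 in the same order, and calls of a higher downstream stretch 21, 11 and 15. Calls of a lower downstream stretch were 32, 8 and 36, and 41 without Total RNA-Frag-Seq replicate 1. In genes over 150 kb the first kb fell in 25 without Total RNA-Frag-Seq replicate 1, in 12 without Total RNA-Seq replicate 1 and in 8 without Total RNA-Seq replicate 2.

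**Figure D3:**
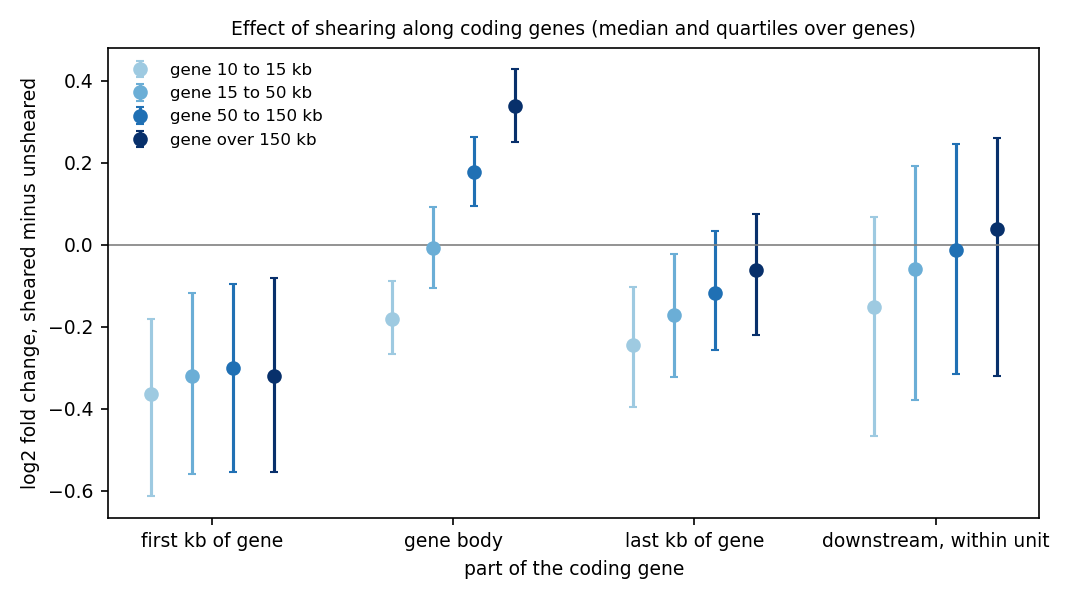
Median and quartiles over coding genes of the log2 fold change (sheared minus unsheared) for 4 parts of the gene, in 4 classes of gene length. First-kb medians lie between -0.36 and -0.30 in every class, and body medians climb from -0.18 to 0.34.

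Of the 86 genes with a lower start and a higher body, 4 are shown with the sequence around the RefSeq start, since base composition there moved with the size of the drop. Each window is 300 bases of GRCh38.p14 in the direction of the gene, 250 before the start and 50 after it, and capitals mark CG, which reads the same on both strands. The windows are KIF1B at chr1:10210320-10210619 (plus strand), KCMF1 at chr2:84970911-84971210 (plus), ABCC4 at chr13:95301402-95301701 (minus) and RNF144A at chr2:6932834-6933133 (plus).
KIF1B: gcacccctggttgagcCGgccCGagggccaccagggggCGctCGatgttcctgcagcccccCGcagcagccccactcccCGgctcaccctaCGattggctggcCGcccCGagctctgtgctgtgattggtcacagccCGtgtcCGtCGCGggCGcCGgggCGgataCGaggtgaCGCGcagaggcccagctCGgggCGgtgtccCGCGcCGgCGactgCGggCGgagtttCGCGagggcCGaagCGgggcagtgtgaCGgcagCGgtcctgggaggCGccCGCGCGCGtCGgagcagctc
KCMF1: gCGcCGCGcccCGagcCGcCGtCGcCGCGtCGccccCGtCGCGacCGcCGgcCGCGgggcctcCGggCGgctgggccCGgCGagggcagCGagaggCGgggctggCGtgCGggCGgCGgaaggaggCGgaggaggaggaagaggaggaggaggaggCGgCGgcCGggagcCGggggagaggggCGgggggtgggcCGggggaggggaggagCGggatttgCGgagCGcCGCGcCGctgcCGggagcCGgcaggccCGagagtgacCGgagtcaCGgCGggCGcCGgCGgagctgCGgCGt
ABCC4: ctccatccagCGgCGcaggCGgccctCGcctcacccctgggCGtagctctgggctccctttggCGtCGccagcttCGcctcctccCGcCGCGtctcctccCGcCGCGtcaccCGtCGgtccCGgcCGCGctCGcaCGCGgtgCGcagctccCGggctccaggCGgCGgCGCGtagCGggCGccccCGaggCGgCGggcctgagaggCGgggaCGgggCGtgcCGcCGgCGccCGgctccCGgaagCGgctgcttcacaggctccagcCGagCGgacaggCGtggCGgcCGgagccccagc
RNF144A: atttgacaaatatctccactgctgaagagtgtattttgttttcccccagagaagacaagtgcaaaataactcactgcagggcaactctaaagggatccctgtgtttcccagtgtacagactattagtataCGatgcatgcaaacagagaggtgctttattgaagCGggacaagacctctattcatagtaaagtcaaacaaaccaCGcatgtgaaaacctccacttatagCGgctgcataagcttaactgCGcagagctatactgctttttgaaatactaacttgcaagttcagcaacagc
The first 3 windows hold 75.0%, 83.0% and 79.7% G and C and 39, 51 and 47 CG. The window of RNF144A, shown as the exception, holds 42.0% and 5 CG. Over 27305 RefSeq start windows the median was 58.3% G and C with 14 CG, and 95.8% held at least 1 CG. That set is not limited to the coding genes divided here. Among the 3504 of these with a tested first kb, in 4 bands, the second band ended at 65.7% and the third began at 66.0%.

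KIF1B encodes a kinesin motor that carries organelles along microtubules. Its first kb had 7 and 8 counts in sheared RNA against 36 and 27 in unsheared RNA, at 0.162 and 0.240 against 1.18 and 1.04 CPM, a log2 fold change of -2.44 ± 0.47 (SE, n = 2 against 2). Its body had 122 and 123 against 107 and 104 CPM, a change of 0.28 ± 0.06. For KCMF1, a ubiquitin ligase gene, the first kb had 11 and 6 counts against 30 and 23 (-2.02 ± 0.41) and the body 119 and 123 CPM after shearing against 101 and 100 CPM (0.33 ± 0.06). Both genes were picked for a called start, a called body and a wide gap between them, so that these moved apart was fixed by the choice.

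ABCC4, which encodes an exporter of nucleotides and drugs, had 2.71 and 2.49 CPM in its first kb after shearing against 7.44 and 8.53 CPM without it (-1.55 ± 0.23). Its body had 649 and 707 against 470 and 497 CPM (0.55 ± 0.06). RNF144A, another ubiquitin ligase gene, had 0.672 and 0.570 against 2.17 and 1.93 CPM in its first kb (-1.66 ± 0.28) and 400 and 411 against 330 and 329 CPM in its body (0.36 ± 0.07). The first kb of NCKAP1, a subunit of the actin-branching WAVE complex, changed by -1.77 ± 0.19, and that of MTHFD1L, a mitochondrial folate enzyme, by -1.59 ± 0.36. All of these first-kb and body changes were called under the 3 scalings, which was a condition of choosing the genes. Their adjusted p ran from 2.3e-05 to 0.00893 in edgeR's quasi-likelihood test.

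With the 3504 genes in 4 bands of G and C content of the start window, the median for the first kb was -0.23 in the lowest band (27.7% to 59.7%, 888 genes). It was -0.26 in the second (60.0% to 65.7%), -0.36 in the third (66.0% to 71.7%) and -0.47 in the highest (72.0% to 88.7%, 852 genes). The body showed no such order, with medians of 0.05, 0.05, 0.05 and 0.09. The last kb stood at -0.14, -0.14, -0.17 and -0.16. These medians are a description over genes that share their libraries.

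Counts were spread more evenly along units of the mRNA class after shearing, and other classes were not measured. The measure covers the 7361 mRNA units of at least 4 kb with at least 100 counts in every total RNA library. Their highest 200-base bin held a median of 5.71% and 5.27% of the unit's counts in sheared RNA against 6.65% and 6.75% in unsheared RNA. The share of that bin was lower in both sheared libraries than in either unsheared one in 49.3% of these units and higher in 2.21%. In the 743 such units over 150 kb it was 1.33% and 1.36% against 1.87% and 2.00%, lower in 582 and higher in 1. In 847 such units of 5 to 15 kb it was 16.6% and 15.6% against 17.2% and 17.2%, lower in 173 and higher in 68. Genome-wide, the 10000 fullest bins of a library held 18.01% and 16.6% of its counts against 21.8% and 22.0%.

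In the same mRNA units, the middle of 5 equal parts and the part before it took more of a unit's counts after shearing. The second part from the 5' end held a median of 16.4% and 17.1% of a unit's counts in sheared RNA against 15.1% and 14.9%, and the middle part 17.1% and 17.6% against 16.0% and 16.1%. The first part overlapped between groups, at 18.3% and 19.5% against 18.8% and 18.7%. In units over 150 kb the last part held 18.9% and 18.04% against 21.1% and 21.1%, and the first part 22.1% and 22.6% against 21.3% and 21.2%.

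Among gene lists, long mRNAs of giant proteins stood at the higher end. Of 30 units tested 10 rose and 0 fell, with a median of 0.21, or 0.06 by library size. Against 8.32% of all units, that is 33.3% of the list. This list was not matched by span. Coding units of 50 to 150 kb had a median of 0.18, with 396 of 2325 higher. Those over 150 kb had a median of 0.38, with 454 of 630 higher. Whether the list differs from coding units of its own spans was not tested. HERC2, a ubiquitin ligase gene (chr15:28203350-28321974, minus strand), had 144 and 152 against 104 and 107 CPM (here and for all units below, TMM-scaled CPM of unit counts), a log2 fold change of 0.49 ± 0.06 (edgeR's quasi-likelihood test, adjusted p = 1.61e-05). ACACA, the acetyl-CoA carboxylase that starts fatty acid synthesis (chr17:37078845-37359112, minus), had 549 and 567 against 408 and 408 CPM (0.45 ± 0.05). NF1, the RAS-inactivating neurofibromin (chr17:31094921-31385258, plus), changed by 0.41 ± 0.05 and HERC1 by 0.40 ± 0.05. The filamin gene FLNA, in a unit of 27.1 kb, had 256 and 217 against 266 and 278 CPM and was not called (-0.20 ± 0.08, adjusted p = 0.0878 by edgeR). Without Total RNA-Seq replicate 1, 5 units of the list rose, and without Total RNA-Frag-Seq replicate 1, 3 fell.

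Lists of short genes stood at the lower end. Short coding units as a whole did too, with 28.0% lower at 1 to 5 kb and 25.6% lower at 5 to 15 kb. None of the lists below was matched by span. Of 25 units for immediate early and short-lived regulators 15 fell and 0 rose (60.0% against 5.47% of all units), with a median of -0.43, and 8 fell without Total RNA-Seq replicate 2. NR4A1, an orphan nuclear receptor induced within minutes of stimulation (chr12:52037285-52060160, plus), had 14.6 and 15.1 CPM after shearing against 23.6 and 32.3 CPM without it (-0.91 ± 0.20). GADD45B, a stress response gene (chr19:2476145-2479492, plus), had 2.58 and 2.13 against 3.98 and 4.34 CPM (-0.80 ± 0.19). ID3, an inhibitor of basic helix-loop-helix factors, changed by -0.65 ± 0.18. FOS, an AP-1 subunit, had 3.77 and 4.19 against 6.13 and 18.1 CPM and was not called (-1.58 ± 0.74, adjusted p = 0.226 by edgeR), and its unsheared replicates lay further apart than the groups. T cells also express these regulators, and the T lineage markers outside units were at 6.17 and 5.67 against 104 and 88.5 CPM in the same libraries. Their part in this list was not tested.

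Of 18 units for intronless coding genes 10 fell and 0 rose (55.6% lower against 5.47% of all units), with a median of -0.38. SOX4, a transcription factor gene (chr6:21593761-21608057, plus), had 14.8 and 14.3 against 23.6 and 25.6 CPM (-0.76 ± 0.10, adjusted p = 3.9e-05 by edgeR). The AP-1 genes JUNB (46.8 and 39.5 against 66.4 and 68.3 CPM, -0.64 ± 0.13) and JUND (131 and 113 against 181 and 192 CPM, -0.61 ± 0.10) fell, and both also belong to the list of short-lived regulators. The linker histone gene H1-10 was at -0.56 ± 0.21 and was not called (adjusted p = 0.102 by edgeR). In this list 5 units fell without Total RNA-Seq replicate 2 and 6 without Total RNA-Seq replicate 1.

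Replication-dependent histones, whose mRNAs end in a stem-loop in place of a poly(A) tail, fell in 13 of 17 units and rose in 1, with a median of -0.26. These are 76.5% lower and 5.88% higher, against 5.47% and 8.32% of all units. H2AC20 (chr1:149884447-149891030, plus) had 63.9 and 71.9 against 91.7 and 98.4 CPM (-0.49 ± 0.08), H3C7, in a unit that also holds H4C7, changed by -0.37 ± 0.11, H3C13 by -0.35 ± 0.07 and H2AC11, with H4C9, by -0.34 ± 0.06. The unit that rose, named for H2BC17 after its value was seen, spans 82.8 kb and had 242 and 243 against 201 and 195 CPM (0.29 ± 0.05). Histone genes have near-identical copies, between which the authors' counting may have split reads. Without Total RNA-Seq replicate 2, 3 units fell, and without Total RNA-Seq replicate 1, 8. With any 1 of the 4 total RNA libraries left out, 0 units of the list rose.

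Of 48 units for cytosolic ribosomal proteins 14 fell and 0 rose (29.2% lower against 5.47% of all units), with a median of -0.22. That is near all coding units of 5 to 15 kb, of which 25.6% fell, with a median of -0.24. RPS28 (chr19:8321509-8326056, plus) had 114 and 87.2 against 130 and 136 CPM (-0.40 ± 0.10) and RPL18 (chr19:48611746-48619369, minus) 93.7 and 88.4 against 118 and 121 CPM (-0.39 ± 0.06). RPL28 changed by -0.36 ± 0.06, and RPS21 was at -0.38 ± 0.15 without a call (adjusted p = 0.0917 by edgeR). The count rested on which library was kept. It was 40 without Total RNA-Frag-Seq replicate 1, 9 without Total RNA-Frag-Seq replicate 2, 6 without Total RNA-Seq replicate 1 and 2 without Total RNA-Seq replicate 2. Ribosomal protein genes also have many processed copies in the genome, so their counts are uncertain.

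Of 43 units for oxidative phosphorylation subunits 2 rose and 6 fell, with a median of -0.12. The shares are 4.65% higher and 14% lower, against 8.32% and 5.47% of all units. NDUFS4, a complex I subunit in a unit of 131 kb, had 106 and 109 against 83.7 and 83.0 CPM (0.37 ± 0.06), while NDUFS8, another complex I subunit in a unit of 7.45 kb, had 54.4 and 46.8 against 62.2 and 71.8 CPM (-0.40 ± 0.09). ATP5ME, of the ATP synthase, changed by -0.39 ± 0.13 and NDUFB10 by -0.37 ± 0.10. Of 20 snoRNA host genes 4 fell and 0 rose (20% lower against 5.47% of all units), with SNHG11 lowest (9.33 and 9.99 against 14.1 and 12.5 CPM, -0.47 ± 0.12) and SNHG12 at -0.26 ± 0.08. SNHG10 (-0.27 ± 0.10) and SNHG19 (-0.27 ± 0.12) were not called. Of 10 microRNA host transcripts 2 fell and 0 rose under all scalings, also 20% lower. These were MIR210HG (3.89 and 3.51 against 5.51 and 6.11 CPM, -0.64 ± 0.19) and MIRLET7BHG (5.35 and 5.17 against 8.71 and 7.42 CPM, -0.62 ± 0.15). MIR193BHG (0.34 ± 0.11) and DLEU2 (0.19 ± 0.05) were called under TMM only.

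Of 14 units for erythroid genes, which mark K562, 1 rose and 0 fell, with a median of 0.01 under TMM and -0.14 by library size. The 1 that rose is 7.14% of the list, against 8.32% of all units. Counted over their gene spans as CPM of all bin counts, with no test, 24 of 37 genes of this list were lower in both sheared libraries than in both unsheared ones, 4 were higher and 9 overlapped. No such share over all genes was counted on that scale. On TMM-scaled CPM, 5530 of 19457 units were lower in this sense and 5990 higher. Of the 12 erythroid markers tested above, 3 were called lower and 0 higher. The unit that rose was EPB41, protein 4.1 of the red cell membrane skeleton (chr1:28886726-29123489, plus), with 1030 and 1080 against 772 and 795 CPM (0.43 ± 0.05). ZFPM1, the GATA1 cofactor FOG1, had 131 and 146 against 103 and 104 CPM (0.42 ± 0.09) and the glycophorin gene GYPB 45.2 and 43.9 against 37.0 and 39.7 CPM (0.22 ± 0.08). Both were called under TMM and not under all scalings. LDB1, a bridging factor of erythroid enhancers, was at -0.25 ± 0.09 and not called. The fetal globin gene HBG1, which has no unit of its own and was counted over its span on both strands, had 74.2 and 51.6 against 84.0 and 77.2 CPM of all bin counts and its near-identical copy HBG2 80.4 and 57.2 against 85.8 and 82.4 CPM. HBZ had 28.1 and 20.3 against 33.2 and 34.4 CPM, and HBE1, at 20.3 and 13.7 against 20.01 and 17.5 CPM, overlapped between groups.

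Of 5 nuclear long non-coding RNA units only JPX, encoded in the X inactivation centre, rose (267 and 273 against 188 and 188 CPM, 0.52 ± 0.05), and 0 fell. Over all units 8.32% rose, and of units named for a long non-coding gene 84 of 1114. Of the latter at 50 to 150 kb, the span class of JPX, 48 of 97 rose. A list of 5 units is too small to be told from these shares. MEG3, an imprinted transcript, had 1770 and 1870 against 1620 and 1670 CPM (0.15 ± 0.05), was called under TMM only and stood at -0.008 without Total RNA-Frag-Seq replicate 2. MALAT1, a nuclear speckle RNA, had 9340 and 9760 against 10900 and 10600 CPM and was not called (-0.17 ± 0.08, adjusted p = 0.136 by edgeR), nor was GAS5 (-0.17 ± 0.08). NEAT1, the scaffold of paraspeckles, was counted over its gene span on both strands and stood higher after shearing, at 603.7 and 639.5 against 545.6 and 538.5 CPM of all bin counts.

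**Figure D4:**
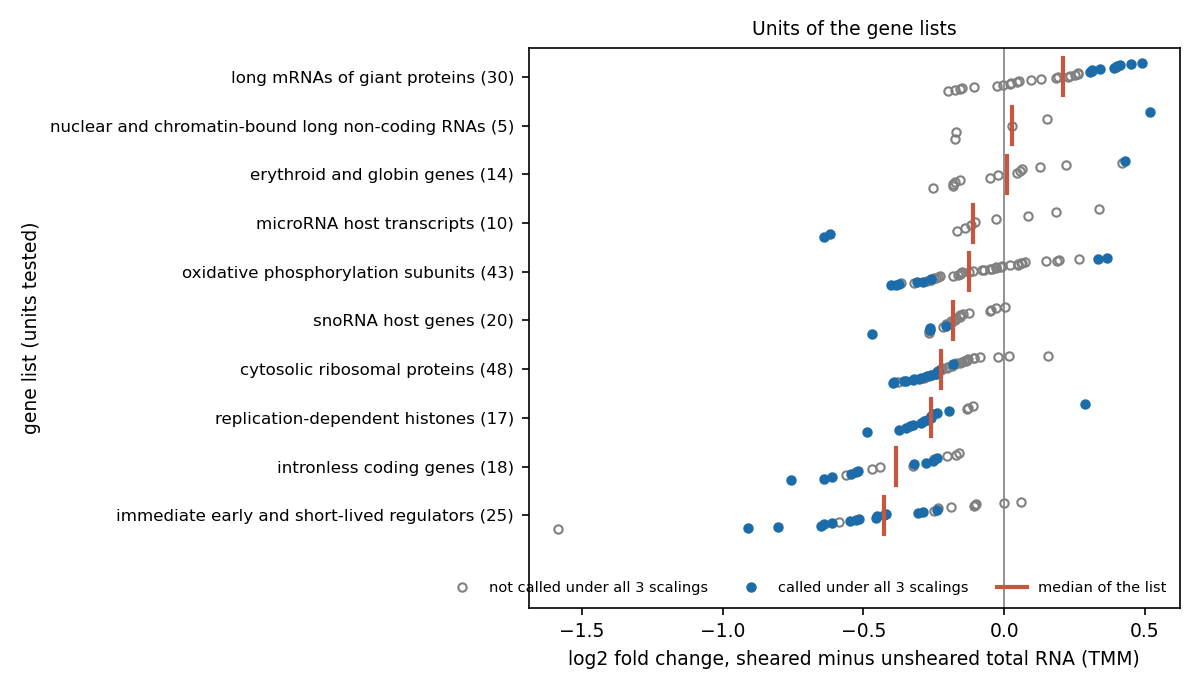
Log2 fold change (TMM) of every tested unit in 10 gene lists, filled where called under all 3 scalings, with the median of the list as a bar. Immediate early regulators have a median of -0.43 with 15 filled points below 0, and giant-protein mRNAs a median of 0.21 with 10 filled points above 0.

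Some RNAs have no unit named for them and were counted over their gene spans, as CPM of all bin counts and with no test. Apart from GAPDH, the spans given here were counted on both strands together. No share of all features with groups apart was counted on this scale. On TMM-scaled CPM, 5530 of the 19457 tested units were lower in both sheared libraries than in both unsheared ones and 5990 were higher. By library size alone the median unit was itself lower, at -0.18. All 15 mitochondrial genes measured were lower in both sheared libraries, at 0.737 to 0.806 of the unsheared level. They lie on 1 chromosome and are not 15 separate results. That chromosome took 2.938% and 3.26% of counts in sheared RNA against 4.015% and 4.073% in unsheared RNA. ND4, a complex I subunit gene, had 4905 and 5544 against 6615 and 6890 CPM, and COX1, the catalytic subunit of cytochrome oxidase, 3420 and 3623 against 4492 and 4654 CPM. Of 21 short structured RNAs 17 were lower in both sheared libraries, 0 were higher and 4 overlapped, with ratios from 0.495 to 0.81 and a median of 0.74. The lowest ratios rest on few counts: VTRNA1-2 (0.495) had 6 and 2 against 4 and 7, and SNORD3D (0.548) had 5 and 8 against 8 and 10. RNU4ATAC, RNU6ATAC, VTRNA1-2 and SNORD118 are the 4 that overlapped. RN7SK, which holds P-TEFb inactive, had 367.1 and 417.9 against 505.6 and 541.2 CPM, and RN7SL1, the RNA of the signal recognition particle, 119.9 and 137.7 against 174.9 and 185.1 CPM. RMRP, of the RNase MRP enzyme, had 193.9 and 217.3 against 261.1 and 294.6 CPM and RPPH1, of RNase P, 231.9 and 235.4 against 328.6 and 337.1 CPM. The unit over RN7SK (chr6:52995627-52995923, plus) was tested and fell by 0.28 on the log2 scale (SE 0.08).

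Abundant housekeeping mRNAs stood lower too. GAPDH, of glycolysis, had 640.4 and 572.3 against 745.1 and 831.3 CPM of all bin counts and ACTB, beta-actin, 1117 and 1011 against 1319 and 1407 CPM. H4C3, a histone H4 gene, stood at 119.6 and 93.5 against 145.4 and 122.7 CPM. EEF2, which encodes the translocation factor of translation (chr19:3975138-3985452, minus), was tested as a unit and fell, with 1530 and 1410 against 1720 and 1860 CPM of unit counts (-0.28 ± 0.08, adjusted p = 0.0185 by edgeR).

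Among units with a gene symbol and at least 1 CPM, the highest on shearing was ROR2, a receptor tyrosine kinase that binds WNT5A (chr9:91798285-91950212, minus). It had 248 and 261 CPM after shearing against 134 and 134 CPM without it, a log2 fold change of 0.93 ± 0.06 (edgeR's quasi-likelihood test, adjusted p = 1.06e-06). The antisense transcript LOC101930071 (chr19:42397160-42446089, plus) had 57.5 and 65.0 against 31.6 and 33.1 CPM (0.92 ± 0.08). A unit of 230 kb named for the splicing kinase gene CLK4, which also holds the collagen gene COL23A1 (chr5:178396891-178627094, minus), had 620 and 673 against 344 and 350 CPM (0.90 ± 0.06). Groups without overlap were a condition of the choice, and the sheared levels were under 2-fold above the unsheared ones.

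The other high units were the phosphatase gene PPM1E (0.83 ± 0.07), the zinc transporter gene SLC39A11 (0.80 ± 0.06), the ADP-ribosylhydrolase gene MACROD1 (0.80 ± 0.10) and the antisense SPRY4-AS1 (0.79 ± 0.08). They were followed by CLYBL, a mitochondrial lyase gene (0.77 ± 0.07), EMP2 (0.76 ± 0.19), the tRNA modification gene TYW1B (0.74 ± 0.06) and CUX1, a homeodomain factor gene (0.74 ± 0.05). LDLRAD3 (0.74 ± 0.07), LINC00200 (0.74 ± 0.07) and PRKCE, of protein kinase C epsilon (0.73 ± 0.07), completed the 15 together with LOC124902867 (0.82 ± 0.24), which was not called under all scalings. CUX1 had 958 and 1030 against 594 and 593 CPM and PRKCE 506 and 540 against 315 and 314 CPM. Of the 15, 11 span over 100 kb, and EMP2, at 30.1 kb, and LOC124902867, at 13.1 kb, are the shortest.

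At the low end stood GNB1-DT, a transcript divergent from GNB1 (chr1:1891198-1895275, plus), with 2.04 and 1.58 against 3.56 and 4.38 CPM (-1.11 ± 0.20, adjusted p = 0.000748 by edgeR). HES4, a Notch-responsive repressor gene (chr1:997552-1001958, minus), had 3.71 and 3.28 against 7.89 and 6.39 CPM (-1.03 ± 0.22). CCDC85B (chr11:65888673-65895863, plus) had 28.1 and 25.8 against 51.5 and 53.1 CPM (-0.95 ± 0.20). These units span under 10 kb, as do 13 of the 15 lowest.

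TCF7, a transcription factor of the T lineage (chr5:134115258-134158845, plus), is 1 of the exceptions, at 43.6 kb. It had 17.6 and 17.8 against 33.8 and 35.9 CPM (-0.98 ± 0.10). The other is NR4A1. CD3D, the T lineage marker with a unit of its own (chr11:118336254-118342646, minus), had 5.01 and 3.63 against 6.84 and 7.79 CPM (-0.74 ± 0.18). Both TCF7 and CD3D belong to the T lineage list whose genes outside units were summed at 6.17 and 5.67 against 104 and 88.5 CPM, and the part of that signal in them was not tested.

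The rest of the 15 lowest had few counts. They were the antisense ATP6V0E2-AS1 (-1.02 ± 0.29), the non-coding LOC102725228 (-0.99 ± 0.27), LOC124900666 (-0.94 ± 0.21), LOC124902526 (-0.94 ± 0.31), LOC124902309 (-0.84 ± 0.25) and LOC105379183 (-0.81 ± 0.22), the histone gene H2BC26 (-0.91 ± 0.17), the divergent CEP83-DT (-0.88 ± 0.19) and NPW, of neuropeptide W (-0.87 ± 0.20). Apart from NPW, at 8.57 and 6.44 against 13.2 and 14.5 CPM, each was under 5 CPM in all 4 libraries.

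**Figure D5:**
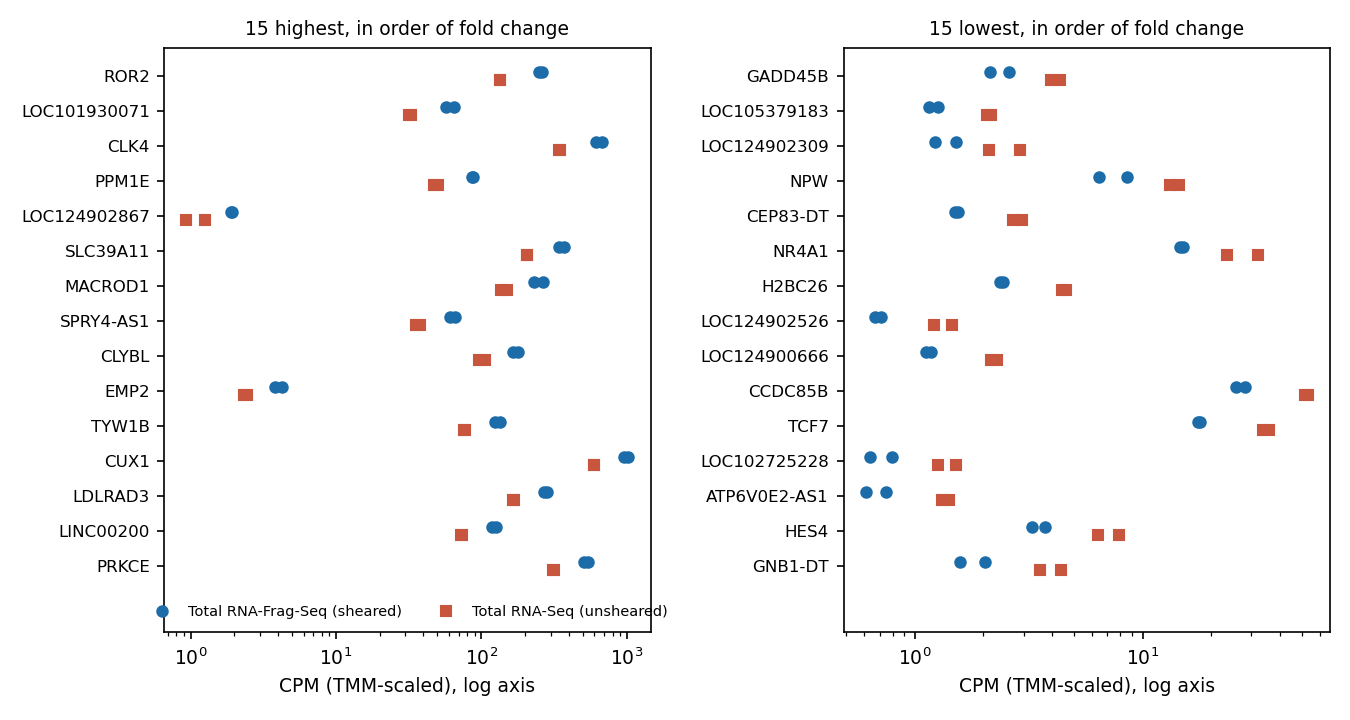
CPM of unit counts (TMM-scaled, log axis) in each total RNA library for the 15 named units with the highest and the 15 with the lowest log2 fold change. Units run from ROR2 at 248 and 261 against 134 and 134 to GNB1-DT at 2.04 and 1.58 against 3.56 and 4.38. That both circles (sheared) lie on the same side of both squares (unsheared) was a condition of choosing them.

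By class and without regard to symbols, the largest changes were in units of low counts. The highest was a convergent unit (chr22:38005341-38013632, plus) with 1.46 and 2.13 against 0.899 and 0.606 CPM (1.21 ± 0.31), and the short intergenic unit beside it (chr22:38022143-38037437, plus) stood at 1.13 ± 0.29. An mRNA class unit of 49.0 kb (chr7:75657754-75706765, minus) had 25.1 and 29.9 against 12.5 and 11.4 CPM (1.20 ± 0.11, adjusted p = 2.82e-06 by edgeR). The lincRNA class was led by a unit of 250 kb (chr22:49407057-49657496, minus) with 860 and 957 against 472 and 492 CPM (0.92 ± 0.08). BICRA, a subunit gene of a chromatin remodeller in the ambiguous class, had 92.3 and 99.0 against 64.9 and 69.3 CPM (0.51 ± 0.07).

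Lowest of all was a short intergenic unit (chr10:61759831-61767329, plus) with 0.365 and 0.553 against 2.66 and 1.49 CPM (-2.23 ± 0.36). An enhancer RNA unit (chr10:72320416-72331014, plus) had 0.972 and 1.03 against 3.24 and 1.49 CPM (-1.28 ± 0.33), and an mRNA class unit over EGR2, an immediate early factor gene (chr10:62809236-62816562, minus), 2.43 and 1.82 against 3.63 and 4.99 CPM (-0.99 ± 0.25). The lowest unit of the ambiguous class, named for the transporter gene SPNS1, also holds LAT, an adaptor of T cell signalling, and had 21.2 and 17.7 against 26.0 and 29.4 CPM (-0.50 ± 0.12). Groups without overlap were a condition of choosing these units.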

How the data were processed

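RNA from 2 libraries each of Total RNA-Frag-Seq, Total RNA-Seq, TT-Seq and 4sU-Seq was measured as counts per 200-base bin and strand, deposited by the authors as raw counts per the file headers and their whole-number values. The submitters' processing notes name STAR 2.3.0, Bowtie2 2.1.0, SAMtools and the build GRCh38 (hg38). Libraries were made with the NuGEN Human Whole Blood kit and read on a HiSeq 1500, per the labels' protocols. All 16 RNA columns were mapped to samples and 0 were left unmapped. The separate exon and intron tables and the ChIP libraries were not used here.

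Bins were summed over each unit on its own strand. A unit was named for a RefSeq gene (GRCh38.p14, same strand) at a Jaccard overlap of at least 0.5, or by covering 0.8 or more of a gene and starting within 3000 bases of it, which named 7986 of 21874 units. Counts were fitted with edgeR 4.0.16 (R 4.3.3, robust quasi-likelihood, TMM factors, filterByExpr) over all 8 RNA libraries, with 4 residual degrees of freedom and Benjamini-Hochberg adjustment at 0.05. TMM factors ran from 0.872 to 1.11. SE is the log2 fold change divided by the square root of its F statistic. Alternatives used DESeq2 1.42.0, and summaries Python 3.11.15 with numpy 2.4.6 and pandas 2.3.3. The fit was tested on simulated data with the same noise in every group and as many units raised as lowered. That simulation does not bear on unequal noise between groups or on the choice of scaling.

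Depth was 25909021 to 43136737 counts per total RNA library. The biological coefficient of variation was 0.0547. Samples were grouped by their labels. P-values rest on the spread between replicates pooled over the 4 groups of 2 libraries and drawn towards a trend across units. Replicates of the groups were unequally noisy. The chi-square of replicate 1 against 2 per degree of freedom was 7.87 in Total RNA-Frag-Seq, 2.71 in Total RNA-Seq, 3.91 in TT-Seq and 10.4 in 4sU-Seq. Named units are, among called units whose groups do not overlap and with a mean of at least 1 CPM, the 15 highest and 15 lowest with a symbol and the extremes of each class, with up to 4 members of each list by absolute log2 fold change and 15 genes fixed whatever their values. Genes named for their parts, T lineage examples and genes outside units were chosen after their values were seen. Members and lists were chosen with earlier results of these data known. The rule that a call must hold under 3 scalings, the 6 marker lists by lineage, the gene parts and the gene spans outside units were added after the data had been seen.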

Additional observations from a re-analysis of the deposited data

Results flagged for a closer look

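In 58 of the 95 named units the effect of shearing differed between purified and total RNA by the interaction term of edgeR's quasi-likelihood test (adjusted p under 0.05). Each value below is the log2 fold change of TT-Seq over 4sU-Seq minus that of Total RNA-Frag-Seq over Total RNA-Seq, from 2 libraries a group. It was below 0 in 46 units and above 0 in 12. Over all 19457 units it was called below 0 in 25.8% and above 0 in 8.65%. Many of the named units were picked for a large effect in total RNA, which this difference subtracts, so the counts among them support nothing.

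Among units with a symbol, the difference was -1.95 in MACROD1, -1.89 in LINC00200, -1.62 in LOC101930071, -1.57 in FLNA, -1.52 in CLK4, -1.50 in ZFPM1, -1.46 in LOC124902867 and -1.46 in MEG3. It was -1.43 in H1-10, -1.38 in EEF2, -1.20 in NDUFB10, -1.19 in ROR2, -1.05 in NPW, -0.98 in CLYBL, -0.97 in SLC39A11 and -0.96 in RPS28. Next came -0.92 in MIR210HG, -0.91 in SPRY4-AS1, -0.91 in MALAT1, -0.91 in LDB1, -0.90 in BICRA, -0.83 in NDUFS8, -0.82 in RPL28 and -0.81 in LDLRAD3. Then followed -0.73 in PRKCE, -0.67 in JPX, -0.66 in PPM1E, -0.57 in RPL18, -0.56 in JUND, -0.52 in CUX1, -0.35 in GYPB and -0.34 in TYW1B. The smallest were -0.31 in HERC2 and -0.21 in ACACA. 

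Among units without a symbol it was -2.27 in the lincRNA unit at chr22:49407057-49657496 (minus), -1.53 in the asRNA unit at chrX:135973539-135981619 (plus), -1.35 in the sincRNA unit at chr22:38022143-38037437 (plus), -1.22 in the mRNA unit at chr7:75657754-75706765 (minus), -1.18 in the transcribed processed pseudogene unit at chrX:120198142-120245197 (minus) and -1.11 in the eRNA unit at chr11:119441586-119463190 (plus). The others below 0 were -1.004 in the unclassified unit at chr2:11867134-11972409 (plus), -0.82 in the unitary pseudogene unit at chr6:109250802-109340033 (plus), -0.79 in the transcribed unprocessed pseudogene unit at chr4:208677-235063 (plus), -0.75 in the uaRNA unit at chr6:14698284-14716374 (minus), -0.46 in the processed transcript unit at chrX:63500180-63561058 (minus) and -0.27 in the unprocessed pseudogene unit at chr7:32567218-32684220 (minus).

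Above 0, the difference was 1.78 in LOC124900666, 1.03 in LOC105379183, 0.84 in CEP83-DT, 0.76 in SOX4, 0.73 in GNB1-DT, 0.52 in H3C7, 0.51 in H2AC11 and 0.37 in TCF7. Units without a symbol above 0 were 2.38 in the sincRNA unit at chr10:61759831-61767329 (plus), 1.44 in the uaRNA unit at chr6:30488982-30490199 (minus), 1.44 in the eRNA unit at chr10:72320416-72331014 (plus) and 1.22 in the asRNA unit at chr2:65129940-65133959 (plus). T lineage markers were higher in both unsheared total RNA libraries, and their part in the value of TCF7 was not tested.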

How the results depend on the processing

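The order by span kept its direction in all 12 alternatives, with the median over 150 kb above that up to 15 kb by 0.579 to 0.684. Counts of calls moved with the scaling. Units higher after shearing (3211) numbered 1619 with library size alone, 2035 with DESeq2's size factors and 2024 with DESeq2's Wald test. Units lower (1064) numbered 3238, 2497 and 2315 in the same order, and 1930 when only the 4 total RNA libraries were fitted. Leaving out 1 library gave 1063 to 2916 higher, 296 to 1313 lower and 2376 to 4223 called in all (4275). The difference between purified and total RNA was above 0 in 3518 units with library size alone and 2845 with DESeq2's factors (1683), and below 0 in 3265 with library size alone (5018). Leaving out 1 library gave 1102 to 2185, 3368 to 5059 and, in all, 5198 to 6939 (6701). It could not be fitted with the 4 total RNA libraries alone.

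Replicate numbers did not pair the samples: deviations of same-numbered libraries correlated at 0.0125 between the total RNA groups and at 0.00179 to 0.101 between the other groups. With the replicate block 3346 units were higher and 1333 lower, and the difference was above 0 in 1770 and below 0 in 5183. For the 95 named units, 981 values kept their side of the threshold, 113 lost the call, 43 gained one and 1 reversed. That was MEG3, at -0.008 without Total RNA-Frag-Seq replicate 2 and at most 0.191, without Total RNA-Frag-Seq replicate 1. In mRNA units the sheared minus unsheared share of the first of 5 equal parts was 0.212 percentage points, and that of the first of 10 parts -0.425. The causes were not tested. Units up to 5 kb had few counts, which limits calls there.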

Other observations

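Outside the units, several genes with no role as a T lineage marker in the lists stood far lower in sheared RNA. MYO7B, an unconventional myosin of brush borders, had 0.162 and 0.12 against 10.6 and 13.4 CPM of all bin counts (log2 -6.24 ± 0.31, edgeR's quasi-likelihood test, adjusted p = 9.26e-09). LAIR1, an inhibitory receptor of leukocytes, had 0.0232 and 0.03 against 3.52 and 1.97 CPM. TRAF3IP3, an adaptor of lymphocytes, had 0.0232 and 0.06 against 3.13 and 2.01 CPM. AK3, a mitochondrial adenylate kinase gene, had 0.0464 and 0 against 1.61 and 2.59 CPM.

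Higher after shearing were the non-coding LOC105376836, at 14.1 and 14.2 against 6.65 and 8.03 CPM (log2 1.07 ± 0.12), and LOC105373857, at 12.2 and 12.7 against 7.27 and 6.56 CPM (0.97 ± 0.11), both counted on both strands. PIK3CA-DT, divergent from PIK3CA, had 1.83 and 1.77 against 0.79 and 1.16 CPM (1.02 ± 0.24).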
